A study of Mus musculus with 4 samples.

Results

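The genes described here are the splicing factors and heterogeneous nuclear ribonucleoproteins (hnRNPs) whose mouse symbols start with Snrp, Sf3a, Sf3b, Prpf, Srsf or Hnrnp. Of 71 such symbols in the RefSeq annotation, 64 had at least 1 probe on the arrays, of 20280 symbols in all. Of these, 63 passed the filter on dim probes, among 22362 genes and unnamed transcripts that passed it. They comprised 11 Snrp, 3 Sf3a, 6 Sf3b, 13 Prpf, 10 Srsf and 20 Hnrnp genes. The one left out, Snrpn, has 3 probes, and none of them was well above background on any array. Srsf11 and several annotated pseudogenes had no probe matched to them and were not analysed here.

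RNA came from lymphoid-primed multipotent progenitors (LMPP) of mouse bone marrow, early blood-forming cells that can still give lymphoid and myeloid progeny. The mice carried a green fluorescent protein knock-in at IRF8, a transcription factor needed for monocyte and dendritic cell development, and the reporter allele is common to both groups. Magnetic enrichment was followed by flow sorting of cells positive for CD34, CD117, CD135 and Sca-1 and negative for CD150, IL-7R and lineage markers, and these were split into IRF8-GFP positive LMPP (2 arrays) and IRF8-GFP negative LMPP (2 arrays). No treatment was given, and the strain background, the age and the number of mice behind each array are not given in the sources used here. Whether replicate arrays stand for different mice is not stated either, so a p-value here weighs a difference against the spread between arrays alone, which can be technical.

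Introns are removed from transcripts by the spliceosome, a machine of small nuclear RNAs and proteins that assembles anew on each intron. U1 marks the 5′ splice site, U2 with its SF3a and SF3b subcomplexes holds the branch point, and the U4/U6 and U5 particles bring in the parts that form the catalytic centre. SR proteins, encoded by the Srsf genes, bind exons and mostly favour their inclusion, while hnRNPs coat nascent transcripts and often favour skipping, and blood cell development makes wide use of both.

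The promoters of these genes were compared by sequence before their values, because most of the genes moved the same way. RefSeq promoter windows (GRCm38.p6, 250 bases before to 50 bases after a start) were found for 55 of the 63 genes, as 71 windows, and 12 motifs were searched on both strands. Upstream parts of 4 windows follow, each read 5′ to 3′ in the direction of the gene. All 4 hold a motif of those marked below. The same part holds none for many members, such as Prpf31 and Snrpa1, which were also higher under every scaling. Prpf40b has another start, whose window holds an E-box instead. Hnrnpd (chr5:99978939-99979188, minus strand) and Snrpa (chr7:27196272-27196521, minus strand) are shown as genes that were higher in IRF8-GFP positive LMPP under every scaling. Srsf5 (chr12:80945249-80945498, plus strand) is shown as a gene that did not pass, and Prpf40b (chr15:99303034-99303283, plus strand) as one that was lower. Capitals mark the long ETS motif CCGGAAGT, the E-box CACGTG and the IRF repeat (GAAA, NN and again GAAA), on whichever strand they were read.
Hnrnpd: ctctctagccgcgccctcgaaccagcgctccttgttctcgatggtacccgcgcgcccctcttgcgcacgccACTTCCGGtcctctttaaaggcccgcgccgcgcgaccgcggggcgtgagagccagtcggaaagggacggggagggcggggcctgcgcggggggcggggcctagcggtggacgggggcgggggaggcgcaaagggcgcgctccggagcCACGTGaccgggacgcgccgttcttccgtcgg
Snrpa: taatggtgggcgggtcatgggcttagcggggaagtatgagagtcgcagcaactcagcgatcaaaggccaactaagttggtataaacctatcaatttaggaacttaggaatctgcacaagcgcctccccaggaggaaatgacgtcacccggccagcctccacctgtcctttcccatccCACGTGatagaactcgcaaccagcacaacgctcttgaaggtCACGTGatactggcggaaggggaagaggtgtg
Srsf5: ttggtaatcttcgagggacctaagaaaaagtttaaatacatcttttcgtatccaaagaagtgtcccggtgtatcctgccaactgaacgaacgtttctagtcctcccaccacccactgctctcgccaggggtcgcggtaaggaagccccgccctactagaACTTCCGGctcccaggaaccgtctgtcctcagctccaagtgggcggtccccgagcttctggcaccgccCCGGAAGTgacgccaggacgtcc
Prpf40b: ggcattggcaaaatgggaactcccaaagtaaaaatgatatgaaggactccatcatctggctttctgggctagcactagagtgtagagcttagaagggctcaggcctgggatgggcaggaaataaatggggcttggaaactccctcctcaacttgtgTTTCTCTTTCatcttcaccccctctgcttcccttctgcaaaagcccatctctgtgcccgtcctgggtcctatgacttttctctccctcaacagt
The long ETS motif stood in 12 of the 71 windows (16.9%), against 3.89% of 32851 mouse promoter windows and 7.37% of 13535 windows of genes that passed the filter. Its core GGAAGT, which lies within the long form, was in 40.8% of the members' windows, 23.8% of all windows and 27.9% of those of tested genes. The E-box was in 11 windows (15.5%), against 7.15% of all windows and 9.63% of those of tested genes. Windows of the same gene can overlap, so a match can be counted repeatedly, as the long ETS motif of Sf3b2 and of Srsf4 was.

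Of the motifs that IRF factors are known to bind, the IRF repeat was in 1 window of the members (1.41%), the second start of Prpf40b shown above. It was in 3.44% of all windows and 3.1% of those of tested genes. The composite of a PU.1 and an IRF site (GGAA, NN and then GAAA) was in 0 of 71. It was in 2.72% of all windows and 2.36% of those of tested genes. The other motifs are given beside their share in the windows of tested genes. The GC box GGGCGG was in 66.2% of the members' windows and 58.7% of those of tested genes, ATTGG in 49.3% and 37.8%, TATAAA in 8.45% and 8.05%, TGACGTCA in 2.82% and 2.83%, TTTCCGC in 4.23% and 4.31%, and the YY1 motif in 1.41% and 1.37%. The NRF1 motif was in 0 of 71 and in 1.85% of the windows of tested genes. A match describes letters in a window and not a bound site. Of the members with the long ETS motif, Hnrnpd, Hnrnpf, Prpf6, Sf3a1, Sf3a3, Sf3b2, Snrpe and Srsf4 were higher, and Srsf5 and Prpf4b did not pass. Most members with an E-box were higher, among them Snrpa, Hnrnpd, Hnrnpf, Hnrnph2, Prpf3 and, by its brightest probe, Hnrnpa3. Prpf39 and Prpf40b, which also have an E-box, were lower, and they are among just 4 lower members in all. Of all 63 members, 82.5% were higher and 6.35% were lower.

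Signals below are log2 of the background-corrected signal minus the array's own 75th percentile, so 0 is the 75th percentile of all probes on that array. Differences are positive minus negative, with the standard error (SE) of the fit, and adjusted p-values are from limma over all 22362 genes and transcripts, with 0.05 as the threshold. The targeted reporter gene followed the labels. Irf8 was at 5.13 and 5.22 on the positive arrays, against 1.64 and 1.60 on the negative arrays, a difference of 3.55 (SE 0.06, 11.7-fold, limma adjusted p = 0.000802). Between 29631 and 30266 of 59305 spots were well above background on the positive arrays, against 33506 and 33681 on the negative arrays. Arrays of a group correlated at 0.997 (positive) and 0.998 (negative), and arrays of different groups at 0.980 to 0.982. RNA of the gate was present, with Kit, Cd34, Flt3 and Ly6a above background on all 4 arrays and Slamf1 (CD150) above background on none. The exception was Il7r, whose protein the gate selects against, with 0.86 and 0.83 on the positive arrays and -1.57 and -1.54 on the negative arrays.

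Most splicing factor and hnRNP genes were higher in IRF8-GFP positive LMPP, by less than 1 log2 unit in every case. Of the 63, 52 were higher (82.5%), 4 were lower (6.35%) and 7 did not pass. Srsf12, counted among the lower, was well above background in negative LMPP alone and passed the filter through that group. Over all genes and transcripts tested, 38.5% were higher and 21.4% were lower, and 59.9% passed in either direction. The median difference of the 63 was 0.55, a 1.46-fold higher signal, with a lower quartile of 0.37 and an upper quartile of 0.72, against a median of 0.16 over everything tested. In 57 of the 63 (90.5%) both positive arrays stood above both negative arrays, which held for 52.4% of everything tested. In 5 (7.94%) both positive arrays stood below both negative arrays, against 29.8% of everything tested. The gene whose groups overlapped was Sf3b1. In bulk RNA, fewer cells with a transcript and less of it per cell cannot be told apart.

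The members' probes were bright, and bright probes as a class were higher. Of the 63, 46 (73%) lay in the brightest 25% of the 22362 by mean signal. In that class 67.1% of all genes were higher, 7.85% were lower, and the median difference was 0.38. Of the 46 members in it, 43 were higher and 3 did not pass, and their median difference was 0.63.

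How the arrays were scaled moved the whole distribution, so each member was also fitted under 6 other scalings. With the arrays quantile normalized, 30 members were higher and 6 lower, against 27.1% higher and 24.4% lower of everything tested, and the members' median was 0.21, against 0.02 for the brightest 25%. With scaling on 7 bright spike-in probes, 31 were higher and 6 lower, against 14.2% and 36.7% of everything tested, and the median was 0.23, against 0.07 for the brightest 25%. With cyclic loess, which takes out any trend of the difference with brightness, 27 were higher and 6 lower, against 23.7% and 27.1%, and the median was 0.20, against -0.01 for the brightest 25%. With normexp background correction the counts were 32 and 6 (background 29.4% and 26.6%), with the authors' matrix 30 and 6 (27% and 24.5%), and with arrays centred on the median of the tested genes 52 and 4 (38.1% and 21.7%). The members' median was above that of the brightest 25% and above that of all genes under each of the 7 scalings, and it lay between 0.20 and 0.23 under 5 of them.

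**Figure D1:**
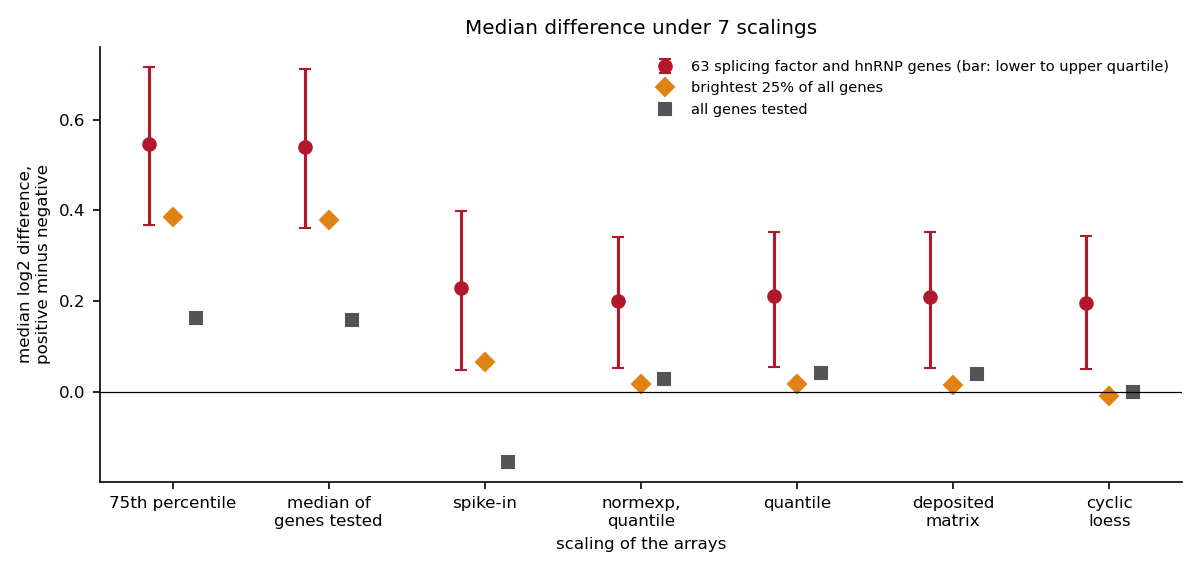
Median log2 difference, IRF8-GFP positive minus negative LMPP (vertical axis), under 7 scalings of the arrays (horizontal axis), for the 63 splicing factor and hnRNP genes (circles, with bars from their lower to upper quartile), the brightest 25% of all genes (diamonds) and all genes tested (squares). The circles stand above the diamonds and squares at every scaling, at 0.55 with the 75th percentile and 0.20 with cyclic loess.

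A direction that held under all 7 scalings was found for 26 members. Of these, 23 were higher (36.5% of the 63, against 12.8% of everything tested and 24.3% of the brightest 25%) and 3 were lower (4.76%, against 18% of everything tested and 7.82% of the brightest 25%). The 23 had signals 1.49-fold to 1.91-fold higher in positive LMPP with the 75th percentile scaling. They were 8 Snrp, 5 Hnrnp, 3 Prpf, 3 Sf3b, 3 Srsf and 1 Sf3a gene, and the 3 lower ones were Hnrnph3, Prpf39 and Prpf40b. By sign alone, 47 members were above 0 under all 7 scalings, 5 were below 0 under all 7, and 11 changed sign between scalings.

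**Figure D2:**
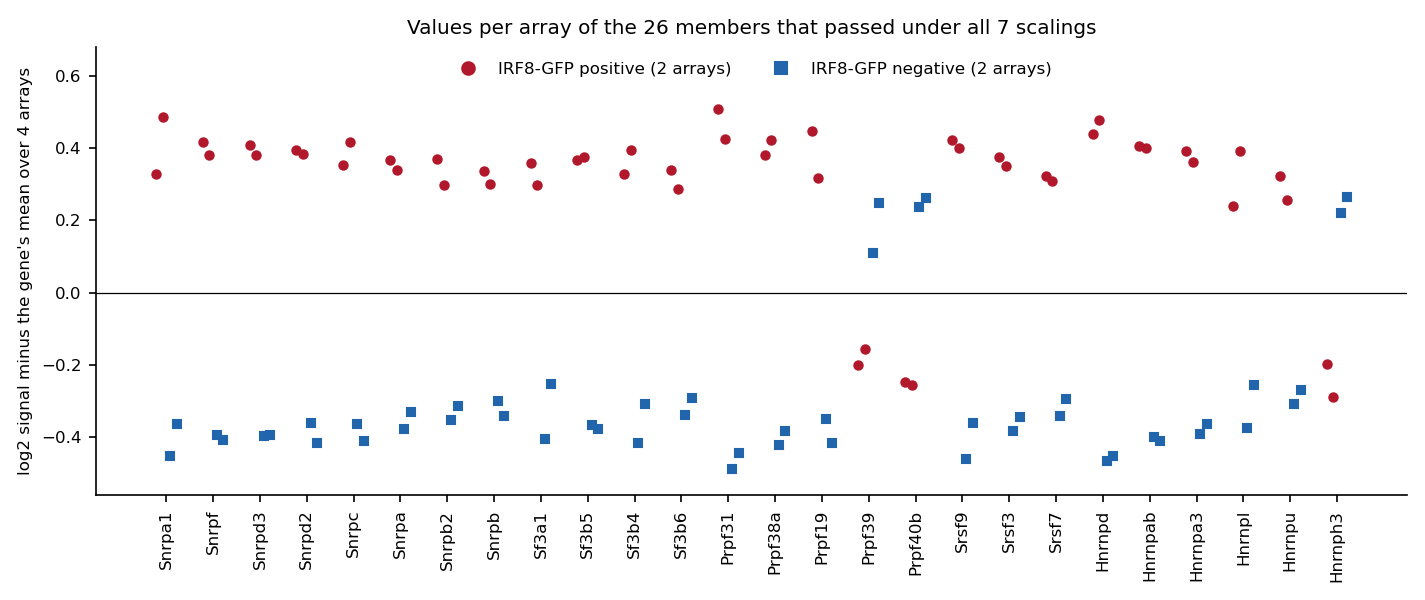
Log2 signal of each array minus the gene's mean over the 4 arrays (vertical axis) for the 26 genes that passed the same way under all 7 scalings (horizontal axis), with IRF8-GFP positive arrays as circles and IRF8-GFP negative arrays as squares. Circles lie above squares for 23 genes and below them for Prpf39, Prpf40b and Hnrnph3, and the groups do not overlap for any of the 26.

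The Snrp genes, which encode snRNP proteins, moved most evenly of the 6 families with the 75th percentile scaling. All 11 Snrp genes tested were higher with the 75th percentile scaling, between 0.62 (Snrpe) and 0.82 (Snrpa1). The SD among their differences was 0.07, close to the median SE of one difference, 0.06. The SD was 0.14 among Sf3a, 0.22 among Sf3b, 0.31 among Hnrnp, 0.41 among Srsf and 0.42 among Prpf genes. With quantile normalization the Snrp differences ranged from 0.14 to 0.48, and the Sf3b differences from 0.03 to 0.36. All 11 Snrp genes were also higher with spike-in scaling, and 8 with quantile normalization and with cyclic loess. The 3 that did not pass under every scaling were Snrpd1, Snrpe and Snrpg, whose differences under quantile normalization were 0.25, 0.14 and 0.25.

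Of the Snrp genes, 7 encode the Sm proteins, which form the ring around the small nuclear RNAs. Snrpf, a ring subunit, was at 5.28 and 5.25 on the positive arrays, against 4.47 and 4.46 on the negative arrays, so the groups did not overlap (difference 0.80, SE 0.06, limma adjusted p = 0.00200). Snrpd3, another ring subunit, was at 5.52 and 5.49 in positive LMPP, against 4.71 and 4.72 in negative LMPP, again without overlap (0.79, SE 0.05, limma adjusted p = 0.00199). Snrpd2 differed by 0.78 and Snrpb by 0.64, both past the threshold under all 7 scalings. Snrpd1 had the widest spread of any member, at 6.31 and 6.62 on the positive arrays, against 5.69 and 5.77 on the negative arrays (0.73, SE 0.13, limma adjusted p = 0.0111), and its call was lost without negative replicate 1 (adjusted p = 0.0659) or negative replicate 2 (0.0558).

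The other 4 Snrp genes encode proteins of a single particle, and all 4 passed under all 7 scalings. Snrpa1, the U2-A′ protein, was at 4.38 and 4.54 in positive LMPP, against 3.60 and 3.69 in negative LMPP (0.82, SE 0.08, 1.76-fold, limma adjusted p = 0.00331). Snrpc, which encodes U1-C and helps U1 hold the 5′ splice site, was at 4.08 and 4.15, against 3.37 and 3.32 in negative LMPP (0.77, SE 0.06, limma adjusted p = 0.00226). Neither pair of groups overlapped. Snrpa, the U1-A protein, differed by 0.71 and Snrpb2, the U2-B″ protein, by 0.67. With quantile normalization the 4 differed by 0.35 to 0.48.

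The SF3a and SF3b subunits of U2 followed with a wider range. All 3 Sf3a genes and 5 of 6 Sf3b genes were higher, with medians of 0.60 and 0.57. Sf3b5, a small SF3b subunit, was at 5.75 and 5.76 in positive LMPP, against 5.02 and 5.01 in negative LMPP (0.74, SE 0.05, limma adjusted p = 0.00212). Sf3b4, which lies near the branch point, was at 4.80 and 4.86 in positive LMPP, against 4.05 and 4.16 in negative LMPP (0.72, SE 0.07, limma adjusted p = 0.00303). In both the groups were apart, and both passed under all 7 scalings, as did Sf3b6 (0.63) and Sf3a1 (0.66). Sf3a3 (0.60), Sf3b3 (0.52), Sf3b2 (0.52) and Sf3a2 (0.39) were higher with the 75th percentile, but with quantile normalization they differed by 0.19, 0.03, 0.11 and 0.05 and did not pass.

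With the 75th percentile scaling, the largest SF3b subunit differed least of the 6. Sf3b1, which clasps the branch point and is mutated in human myelodysplastic syndromes, was at 0.38 and 0.51 on the positive arrays, against 0.21 and 0.38 on the negative arrays. The ranges met, and the difference of 0.15 (SE 0.09) did not pass (limma adjusted p = 0.227). It was -0.17 with spike-in scaling and 0.10 with quantile normalization, and it did not pass under either. With quantile normalization it lay between Sf3b3 (0.03) and Sf3b2 (0.11), so its place below the others depends on the scaling.

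Prpf genes, the mouse counterparts of yeast pre-mRNA processing factors, held the highest and nearly the lowest differences of the 63. Of 13, 9 were higher, 2 were lower and 2 did not pass, with a median of 0.34. Prpf31, which ties U4/U6 to U5, had the largest difference of all members. It was at 5.64 and 5.56 in positive LMPP, against 4.65 and 4.69 in negative LMPP, groups that did not overlap (0.93, SE 0.06, 1.91-fold, limma adjusted p = 0.00195). Its difference was 0.53 to 0.62 with quantile, matrix, normexp, loess and spike-in scaling. Prpf38a, which joins the spliceosome before its activation, was at 3.30 and 3.34, against 2.49 and 2.53 in negative LMPP (0.81, SE 0.06). Prpf19, the ubiquitin ligase that stabilizes the active spliceosome, was at 2.50 and 2.37, against 1.71 and 1.64 in negative LMPP (0.77, SE 0.07). Both were apart between groups and passed under all 7 scalings.

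The remaining tri-snRNP proteins differed less than Prpf31. Prpf3 and Prpf4 of U4/U6 differed by 0.46 and 0.34, and Prpf6 and Prpf8 of U5 by 0.34 and 0.40. Prpf8 forms the cavity of the catalytic centre, and its difference was 0.03 with quantile normalization and -0.13 with loess. All 4 passed with the 75th percentile, and Prpf31 alone of the 5 passed with spike-in scaling. Prpf18, a factor of the second splicing step, differed by 0.27, and the kinase gene Prpf4b (0.17, limma adjusted p = 0.0529) and Prpf38b (0.15, limma adjusted p = 0.122) did not pass. The second, dimmer probe of Prpf4b differed by 0.43 and did pass (limma adjusted p over probes = 0.00669).

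The 2 Prpf genes that were lower, Prpf40b and Prpf39, have yeast relatives that belong to U1. Prpf40b was at -0.11 and -0.12 in positive LMPP, against 0.38 and 0.40 in negative LMPP, and fell by 0.50 (SE 0.05, limma adjusted p = 0.00373). Prpf39 was at 0.97 and 1.01 in positive LMPP, against 1.28 and 1.42 in negative LMPP, and fell by 0.36 (SE 0.07, limma adjusted p = 0.0184). The groups did not overlap for either gene. Both Prpf40b and Prpf39 were lower under all 7 scalings, and a second probe of each differed the same way (-0.43 and -0.32). The call of Prpf39 was lost without positive replicate 1 (-0.33, adjusted p = 0.0543) or negative replicate 2 (-0.29, adjusted p = 0.0897).

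**Figure D3:**
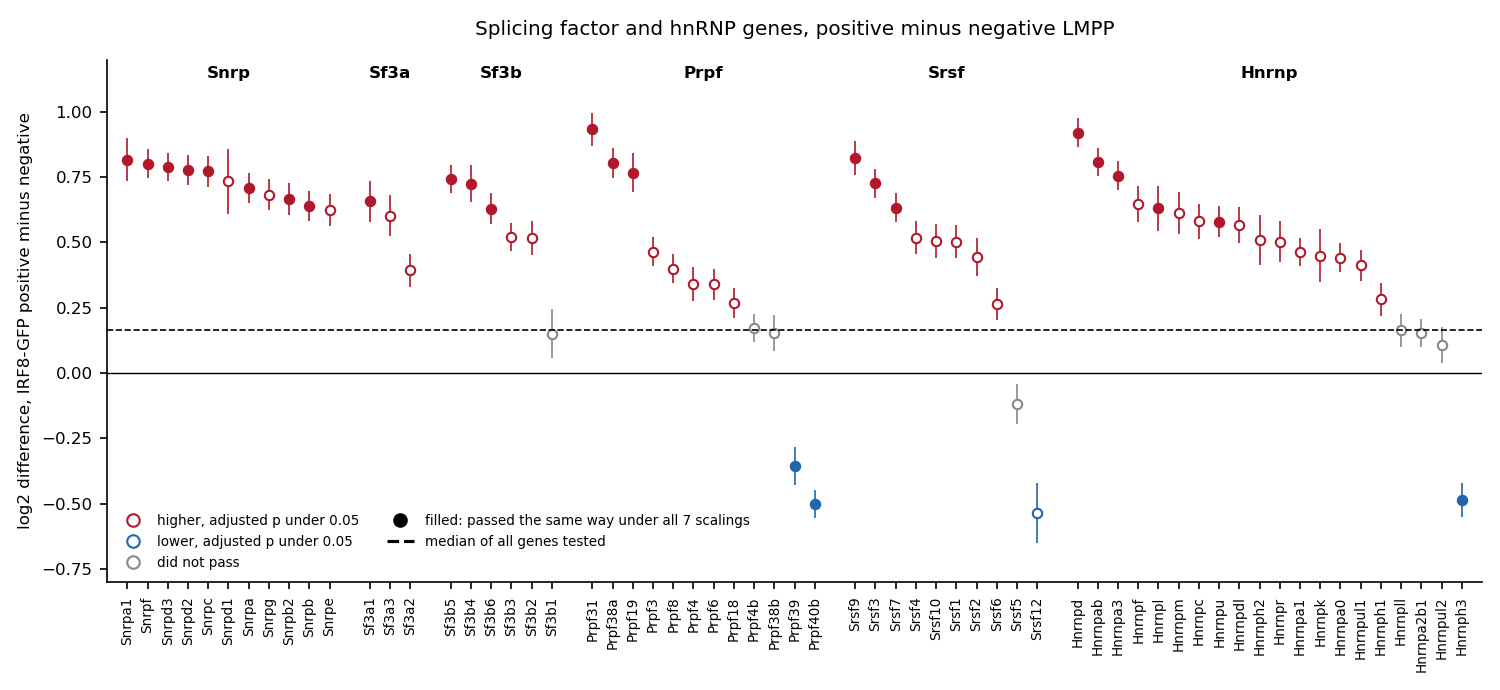
Log2 difference, IRF8-GFP positive minus negative LMPP, with its SE (vertical axis), for 62 of the 63 genes by family (horizontal axis), with the 75th percentile scaling. The 11 Snrp genes lie between 0.62 and 0.82, while the Prpf, Srsf and Hnrnp genes reach from 0.82 or above down to -0.49 or below, and filled points mark the 26 genes that passed the same way under all 7 scalings.

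Among SR protein genes, 8 of 10 were higher, Srsf12 was lower and Srsf5 did not pass, with a median of 0.50. Srsf9 was at 4.31 and 4.29 in positive LMPP, against 3.43 and 3.53 in negative LMPP (0.82, SE 0.06, 1.77-fold, limma adjusted p = 0.00227). Srsf3, a small SR protein that also serves mRNA export, was at 5.33 and 5.31, against 4.58 and 4.61 in negative LMPP (0.73, SE 0.06, limma adjusted p = 0.00222). Srsf7, a related small SR protein, differed by 0.63 on its brightest probe and by 0.17 on a dimmer one. The groups were apart for each of the 3, and these were the Srsf genes that passed under all 7 scalings. Srsf4 (0.52), Srsf10 (0.50), Srsf1 (0.50), Srsf2 (0.44) and Srsf6 (0.26) were higher with the 75th percentile. Of these, Srsf6 turned to -0.05 with quantile, spike-in and loess scaling, while Srsf1, the founding SR protein, and Srsf2, which is mutated in human myelodysplastic syndromes, stayed above 0, at 0.17 and 0.23 with quantile normalization.

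Srsf5 and Srsf12 went the other way. Srsf5 was at 4.18 and 4.24 in positive LMPP, against 4.41 and 4.26 in negative LMPP, a difference of -0.12 (SE 0.08) that did not pass (limma adjusted p = 0.239). The positive arrays lay just below the negative ones, and with quantile normalization the difference was -0.46 and passed (adjusted p = 0.0130), as it did with the matrix, normexp, spike-in and loess scalings (-0.47 to -0.44). Srsf12 was the dimmest member, at -4.40 and -4.14 in positive LMPP, against -3.80 and -3.67 in negative LMPP. It was well above background on both negative arrays and on neither positive array, so it passed the filter only through the group where it is higher. Its call (limma adjusted p = 0.0199) therefore rests on positive signals not told from background, and the call was lost with normexp (0.104). With 1 array left out its difference lay between -0.66 and -0.41. Srsf12 is given as at least 1.2-fold lower. That bound sets the negative mean against a floor on each positive array, either the probe's own signal or, if higher, the dimmest signal that counted as well above background there.

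The hnRNP genes were the most numerous and among the most mixed. Of 20, 16 were higher, 1 was lower and 3 did not pass, with a median of 0.51. Hnrnpd, or AUF1, which binds AU-rich elements and speeds mRNA decay, was at 5.33 and 5.37 in positive LMPP, against 4.42 and 4.44 in negative LMPP (0.92, SE 0.06, 1.89-fold, limma adjusted p = 0.00177). Hnrnpab, a close relative of it, was at 6.75 and 6.74, against 5.94 and 5.93 in negative LMPP (0.81, SE 0.05, limma adjusted p = 0.00193). In both genes the arrays of a group lay within 0.05 of each other and the groups were well apart. Hnrnpl, which binds CA repeats, was at 1.28 and 1.43, against 0.66 and 0.78 in negative LMPP (0.63, SE 0.09, limma adjusted p = 0.00633). Hnrnpu, a chromatin-associated scaffold protein, was at 4.79 and 4.72, against 4.16 and 4.20 in negative LMPP (0.58, SE 0.06, limma adjusted p = 0.00342). These 4 and Hnrnpa3 (0.76 on its brightest probe) were the hnRNP genes higher under all 7 scalings.

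Another 11 hnRNP genes were higher with the 75th percentile but not under every scaling, between 0.28 (Hnrnph1) and 0.65 (Hnrnpf). They included Hnrnpc, which binds uridine tracts (0.58, and 0.09 with quantile normalization), Hnrnpa1, a repressor of exon inclusion (0.46, and 0.07) and Hnrnpk, which binds cytosine-rich RNA (0.45, and 0.19). Hnrnpf, whose protein binds runs of guanine, differed by 0.16 with quantile normalization and did not pass there (adjusted p = 0.129). Hnrnph1, a relative of Hnrnpf, changed sign, to -0.21 with quantile normalization, and with normexp it passed as lower (-0.19, limma adjusted p = 0.0429). Hnrnpll, which in lymphocytes controls splicing of the CD45 transcript, differed by 0.16 (limma adjusted p = 0.0886), Hnrnpa2b1 by 0.15 (0.0715) and Hnrnpul2 by 0.11 (0.240), and none of the 3 passed with the 75th percentile. Hnrnpa2b1 passed as lower with quantile (-0.24, limma adjusted p = 0.0247), matrix (-0.24), normexp (-0.22) and loess (-0.22) scaling, and Hnrnpul2 with spike-in scaling (-0.21, limma adjusted p = 0.0429).

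Hnrnph3, a smaller member of the H/F group, was the hnRNP gene that fell. It was at -1.57 and -1.66 in positive LMPP, against -1.16 and -1.11 in negative LMPP, so the groups did not overlap (-0.49, SE 0.06, 1.40-fold lower, limma adjusted p = 0.00583). It was lower under all 7 scalings, between -0.80 (spike-in) and -0.25 (normexp). The 3 members of that group on the arrays with higher signals in positive LMPP, Hnrnpf, Hnrnph2 and Hnrnph1, differed by 0.65, 0.51 and 0.28.

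Where a gene had several probes, the brightest that passed the filter stands for it. Of 26 members with more than 1 such probe, the probes had the same sign in all but Hnrnpa3 and Hnrnpa2b1. Their sizes could differ. Dimmer probes of Srsf7 (0.17, limma adjusted p over probes = 0.0793), Srsf6 (0.15, 0.0927) and Hnrnpa1 (0.14, 0.422) did not pass, though the brightest did. Hnrnpa3 had 7 probes with differences from -0.11 to 0.79. Its 3 brightest differed by 0.76, 0.75 and 0.79, and 4 dimmer ones by 0.40, 0.22, 0.02 and -0.11. Of Hnrnpa2b1, the brighter probe differed by 0.15 and the dimmer by -0.31 (limma adjusted p over probes = 0.0280). The direction of Hnrnpa3 therefore holds for its 3 brightest probes and the probe at 0.40 (limma adjusted p over probes = 0.00974). It does not hold for the gene as a whole. No direction is given for Hnrnpa2b1, whose brighter probe also changed sign between scalings.

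**Figure D4:**
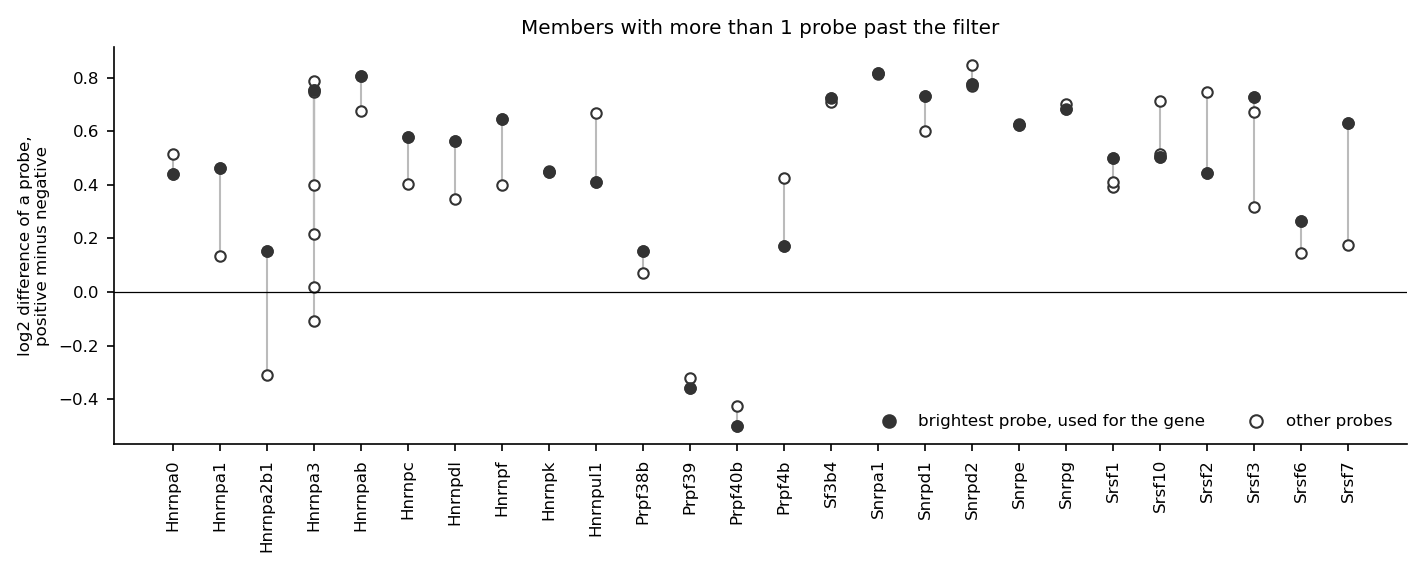
Log2 difference, IRF8-GFP positive minus negative LMPP (vertical axis), of each probe that passed the filter for the 26 genes with more than 1 such probe (horizontal axis), with the brightest probe filled. The probes of a gene lie on the same side of 0 except for Hnrnpa3 (-0.11 to 0.79) and Hnrnpa2b1 (-0.31 and 0.15).

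With 2 arrays a group, single arrays mattered. Of the 56 members that passed, 42 did so in each of the 4 fits that left out 1 array, 14 were lost in at least 1, and 0 changed sign. Fewer members were higher without a negative replicate than without a positive replicate. The share of everything tested that passed in each of these fits is not given, so these losses have no background beside them. Besides Prpf39, Snrpd1 and Srsf12, the members lost at least once were Hnrnph1, Hnrnph2, Hnrnpk, Hnrnpul1, Prpf18, Prpf4, Prpf6, Prpf8, Sf3a2, Srsf2 and Srsf6, with an adjusted p of at most 0.131 in any of these fits.

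Other genes of the splicing pathway were taken as 6 lists, with 147 genes tested, of which 105 were higher, 8 were lower and the rest did not pass, beside 38.5% higher and 21.4% lower of everything tested. Fewer of the 147 were higher without negative replicate 1 or without negative replicate 2, and the share of everything tested in those fits is not given. Among 43 proteins of U5, U4/U6 and the catalytic spliceosome, 37 were higher and 6 did not pass, with a median of 0.49. Here Lsm3 and Lsm5, of the Lsm ring that holds the end of U6, differed by 1.0 (SE 0.06, limma adjusted p = 0.00172) and 0.93. All 7 genes of that ring were higher, between 0.65 and 1.0, and all 7 were also higher with spike-in, normexp and loess scaling, against 6 with quantile normalization and with the matrix. Ppih, a U4/U6-bound peptidyl-prolyl isomerase, differed by 1.0, with 5 probes from 0.18 to 1.04.

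Among 19 proteins of U1, U2 and branch point recognition, 16 were higher and 3 did not pass, with a median of 0.39. Phf5a, a small SF3b subunit outside the Sf3b naming, was at 5.04 and 5.01 in positive LMPP, against 4.07 and 4.15 in negative LMPP (0.91, SE 0.06). U2af1, which reads the AG at the 3′ splice site, differed by 0.79 and Rbm17, which binds branch point proteins, by 0.67. With quantile normalization this list had 6 higher and 3 lower, and the previous one 21 higher and 22 not passed. Over everything tested, 27.1% were higher and 24.4% lower with quantile normalization.

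Most factors that build snRNPs or mark spliced junctions were higher too. Of 22 genes of the exon junction complex and of SMN-dependent assembly, 19 were higher and 3 did not pass, with a median of 0.59, and with quantile normalization 15 were higher and 1 lower. Gemin6, a subunit of the SMN complex, was at 3.0 and 3.04 in positive LMPP, against 2.02 and 2.01 in negative LMPP (1.01, SE 0.06). Eif4a3, the helicase of the exon junction complex, differed by 0.82, and Gemin5, which recognises the RNAs to be assembled, by 0.78.

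The other 3 lists were mixed. Of 12 genes of the minor (U12-type) spliceosome, 6 were higher and 2 lower, with a median of 0.20. Snrnp35 was at 2.66 and 2.68 in positive LMPP, against 1.52 and 1.63 in negative LMPP (1.09, SE 0.07), Snrnp25 differed by 0.73, and Zrsr1, a relative of U2af1, was at -0.39 and -0.34, against 0.36 and 0.53 in negative LMPP (-0.81, SE 0.08). Of 9 kinases and transport factors of SR proteins, 3 were higher and 2 lower, with a median of 0.15. Clk1, a nuclear SR protein kinase, fell by 0.51 (limma adjusted p = 0.00375), Dyrk1a differed by 0.46, and Dyrk1b by 0.72 on its brightest probe and -0.76 on its other probe. With quantile normalization the minor spliceosome list had 2 higher and 3 lower (median 0.07) and the kinase list 3 and 3 (median -0.13). With spike-in scaling they had 2 higher and 3 lower (median -0.12) and 1 higher and 3 lower (median -0.17). Everything tested had 27.1% higher and 24.4% lower with quantile normalization, and 14.2% and 36.7% with spike-in scaling.

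Of 42 SR-related and other splicing regulators, 24 were higher, 4 were lower and 14 did not pass, with a median of 0.32. Raly, an hnRNP C relative, differed by 0.83, Tra2b, an SR-like activator, by 0.73 and Elavl1, or HuR, which stabilizes mRNAs, by 0.68. Elavl1 had a second probe at -0.04. The 4 lower genes were Rbfox2, Tia1, Mbnl2 and Rbm5, a list of regulators of alternative exons named after their values were seen. With loess scaling this list had 4 higher and 6 lower genes, and with spike-in scaling 8 and 9. Over everything tested, 23.7% were higher and 27.1% lower with loess, and 14.2% and 36.7% with spike-in scaling.

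**Figure D5:**
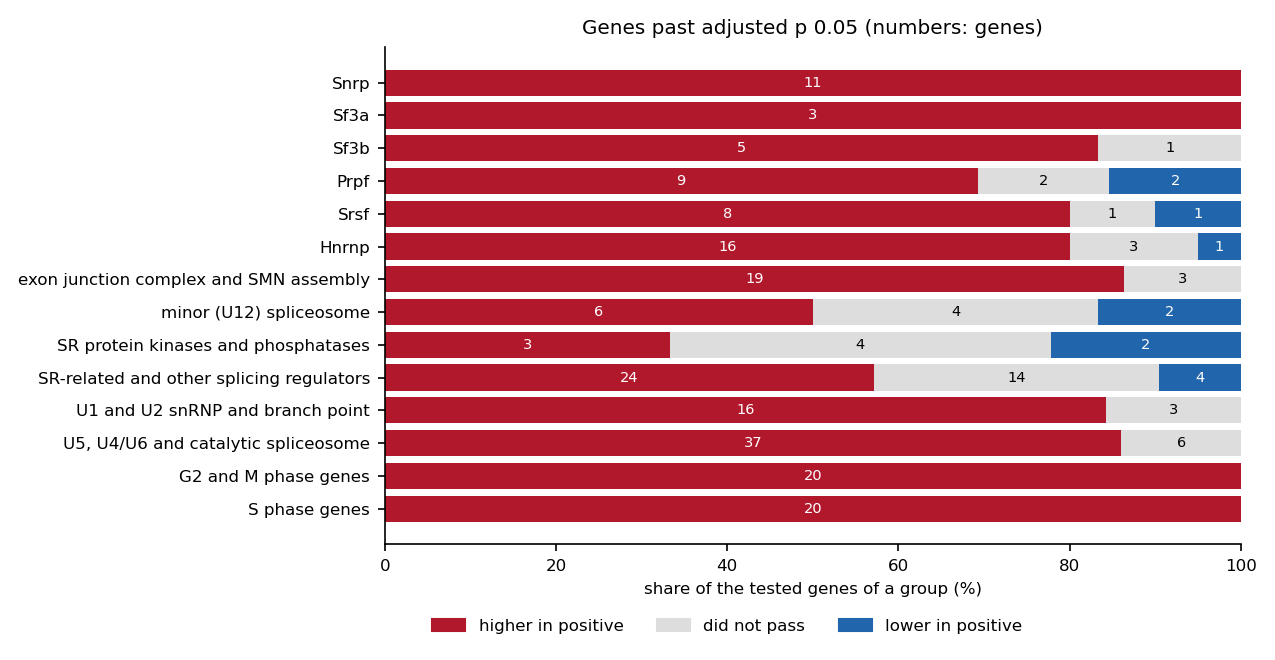
Share of the tested genes in each group (horizontal axis, percent) that were higher, did not pass or were lower in IRF8-GFP positive LMPP at adjusted p 0.05 with the 75th percentile scaling, with the number of genes in each bar segment, for 6 gene families, 6 further splicing lists and 2 cell cycle lists (vertical axis). The Snrp and Sf3a families and the cell cycle lists are higher throughout, and the SR protein kinases have 3 higher and 2 lower of 9.

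Cell cycle genes moved with the splicing genes. Of 20 S phase genes and 20 genes of G2 and M phase, all were higher, with medians of 0.73 and 1.18, and with loess scaling 17 and 20 were higher. Of everything tested, 38.5% were higher with the 75th percentile and 23.7% with loess. The summed signal of the S phase list, relative to the 75th percentile, was 1064 and 1038 on the positive arrays, against 635 and 644 on the negative arrays, and that of the G2 and M phase list 536 and 544, against 242 and 249. Markers of other cell types moved as well. Their counts stand beside 38.5% higher and 21.4% lower of everything tested, or 27.1% and 24.4% with quantile normalization. Of 8 stem cell markers tested, 6 were lower and 2 did not pass, with summed signals of 8.89 and 8.82 in positive LMPP, against 41.8 and 43.7 in negative LMPP. Of 10 megakaryocyte and erythroid markers, 8 were lower (median -1.10), with sums of 4.04 and 4.11, against 9.58 and 9.81 in negative LMPP. All 7 monocyte markers tested were higher, with a median difference of 3.54, and 6 of them with quantile normalization. Their sums, to which the brightest marker adds most, were 209 and 206 in positive LMPP, against 102 and 103 in negative LMPP. Of 6 dendritic cell markers, 4 were higher (median 0.82), with sums of 139 and 119, against 160 and 115 in negative LMPP, and Xcr1 and Cd209a were above background on no array. Of 5 mature neutrophil markers tested, 1 was higher and 1 lower, and another 5 were above background on no array. Of 4 B cell markers tested, Cd79b and Vpreb1 were higher, by 0.36 and 0.74, while Ms4a1, Ebf1 and Igll1 were above background on no array. Of 6 T and NK cell markers tested, 2 were higher and 2 lower, while Cd3d, Cd3g, Cd8a and Ncr1 were above background on no array. The part of cell cycle state or of cell mixture in the splicing gene differences was not tested.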

How the data were processed

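RNA of 2 IRF8-GFP positive and 2 IRF8-GFP negative LMPP samples was amplified and Cy3-labelled with a kit for small inputs for 1-colour Agilent arrays, per the labels' protocols. Per the file headers, Agilent Feature Extraction 10.7.3.1 gave each spot a processed intensity (background-subtracted, not normalized between arrays), spot and background intensities, and flags. The deposited matrix holds linear intensity values. Its 4 columns share 1 median (31.9) and rank as the processed signals do, which is what quantile normalization by the authors would give. How it was centred is not known. All 4 arrays lie on 1 slide, so no slide batch could be set apart.

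Control and outlier spots were left out and no spot was saturated. Of 55669 probes, 30478 were kept, those that were well above background on each array of at least 1 group. Accessions were matched to RefSeq symbols of GRCm38.p6, which named 26756 probes with 1 symbol each and left 28913 unnamed. The arrays were designed on another build, so array coordinates were not used. The brightest kept probe stood for a gene. The model was fitted with lmFit and eBayes of limma 3.58.1 under R 4.3.3, without a block or trend, two-sided, with Benjamini-Hochberg adjustment over 22362 genes and transcripts. With 2 arrays a group the smallest p of an exact permutation test is 0.333, and the p-values depend on the model. Tested on simulated data for this comparison, with 50 of 22362 genes changed at each size, the fit recovered 0, 1, 22 and 47 genes at log2 changes of 0.25, 0.5, 1 and 2, with 3 false calls. Far more genes passed in the data themselves (59.9%), and the adjustment depends on that share. The recoveries therefore do not give the power of the fit for these data.

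The alternatives were 6 other scalings (quantile, normexp with offset 50 then quantile, the authors' matrix, spike-in, cyclic loess, median of tested genes), dim probes all kept or required on all 4 arrays, an intensity trend, the mean of a gene's probes, adjusted p 0.01, each array left out in turn (where the remaining array takes the spread of the other group) and the replicate number as a block. Members, lists, tests and alternatives were chosen with earlier results of these data known. Named members are, per family, up to 4 with the largest difference past the threshold and the one with the smallest, those that passed one way under all 7 scalings, and those not above background in a group. From each further list up to 3 of the largest are named. Others are given by value to complete their family, chosen with their values known. The result of 1 member is not reported here, though it counts in the totals.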

Additional observations from a re-analysis of the deposited data

How the results depend on the processing

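The number of members higher, 52, was 27 with cyclic loess, 30 with the deposited matrix and with quantile normalization, 32 with normexp and 31 with spike-in scaling. Their median difference, 0.55, was 0.20, 0.21, 0.21, 0.20 and 0.23 under these, in the order loess, matrix, quantile, normexp and spike-in. The number lower, 4, was 2 at adjusted p 0.01 and 6 with each of those 5 scalings. With each array left out in turn, 40 to 50 members were higher, 2 to 4 were lower, and the median was 0.52 to 0.59. Of the further splicing genes, 105 were higher and 8 lower, against 51 and 17 with loess, 53 and 16 with the matrix and with quantile normalization, 72 and 17 with normexp, 47 and 20 with spike-in scaling, and 60 to 96 and 4 to 7 with an array left out. Members higher under every scaling, 23, were 24 without loess and 27 without spike-in scaling, and those lower stayed at 3 in number.

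The sign of Hnrnpul2 turned to -0.085 (loess), -0.029 (matrix), -0.028 (quantile), -0.041 (normexp) and -0.21 (spike-in), and with spike-in scaling Prpf38b was at -0.17 and Sf3b1 at -0.17. None of these 3 passed with the 75th percentile, and Hnrnpul2 passed as lower with spike-in scaling (adjusted p = 0.0429). The cause was not tested. A full set of alternatives was run for the 37 members named by the rules given above. These include every member that passed one way under all 7 scalings (23 higher and 3 lower), whose results under the scalings were fixed by that choice. Of the other values of the 37, 512 kept their direction and side of the threshold, 30 lost it and 5 gained it. These numbers therefore do not measure how stable the 63 members are. With the replicate block, 52 members were higher and 4 lower, as without it. The labels do not say that the numbers pair arrays, and the deviations of same-numbered arrays correlated at 0.10 over genes. With 2 arrays a group, and signals limited by background at the dim end, small differences cannot be resolved.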
